A study of Mus musculus with 6 samples.

Results

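The 35 genes described here are genes of the absorptive intestinal cell, the enterocyte, measured in mouse medullary thymic epithelial cells. They were chosen by symbol for their function in the brush border, nutrient transport, lipid and bile acid handling and surface defence. The choice was made with earlier results of these data known. All 35 were found among the 55385 genes of the count files. The enterocyte regulators Hnf4a and Hnf4g were left out of the set and are given separately.

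The series holds 6 mRNA libraries from thymus in 2 groups of 3. One group carries the genotype P53-WT (library names with NoCre, called WT here) and the other the genotype P53-cKO, a conditional knockout of Trp53, which encodes the transcription factor p53 (called cKO here). The cells are labelled mTEChi, a name for mature medullary epithelium rich in class II MHC; they came from mice 4 to 5 weeks old, were enriched with beads for the epithelial protein EpCAM, and 75000 cells per library were sorted. The labels name neither the Cre driver nor the strain and do not say whether each library is a separate animal, so p-values measure the spread between these libraries, which may be partly technical.

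Medullary thymic epithelial cells present proteins of other tissues to developing T cells, a step in self-tolerance. Part of this comes from mimetic cells, subsets of medullary epithelium that switch on the gene program of a peripheral cell type, such as the enterocyte, with the transcription factors of that cell type. Enterocytes take up nutrients through a brush border of microvilli, which are actin bundles held together by cadherins at their tips and coated with digestive enzymes, transporters and mucins. In thymus, HNF4 factors are known to drive a mimetic program shared with gut and liver. In bulk RNA, fewer cells of a type and less RNA per cell cannot be told apart.

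Libraries held 45457892 to 50128045 counts assigned to genes. The targeted gene went with the labels: Trp53 was at 116, 102 and 109 CPM (counts scaled to library size with TMM factors) in WT and at 8.16, 7.85 and 7.38 in cKO, a log2 fold change of -3.81 (SE 0.0999, edgeR quasi-likelihood adjusted p = 5.76e-10). Markers of mature medullary epithelium summed to 48348 to 52377 TPM (counts scaled for exon length and depth) in WT and 49005 to 52622 in cKO, with no marker of the 18 at 0. Most of each sum came from Cd74 (mean 22663 TPM over all libraries), Ubd (7580) and the class II genes H2-Ab1 (5448), H2-Aa (5190) and H2-Eb1 (5131). These 18 genes split evenly by direction, 9 up and 9 down in cKO, with a median of -0.007 on the log2 scale. Groups were apart in CPM for 2 genes upward (11.1%, against 7.14% of all genes tested) and for 2 downward (11.1%, against 7.28%). Cldn3 had the smallest p of the list and was higher in cKO, by 0.36 with an edgeR adjusted p of 0.246. Within that list Aire, which drives tissue antigens, was lower, at 1417, 1301 and 1201 CPM in WT and 822, 1160 and 1159 in cKO, without overlap (log2 fold change -0.32, SE 0.123, edgeR adjusted p = 0.516). In TPM the groups of Aire overlapped, at 704.1 in the third WT library and 705.3 in the second cKO library. Among marker lists of other cells, the 10 myeloid genes summed to 814 to 1065 TPM in WT and 1003 to 1462 in cKO, most of it Lyz2, and the 6 red cell genes to 185 to 203 in WT and 118 to 173 in cKO, without overlap. The thymocyte list (12 genes, 51.8 to 98.6 and 53.5 to 90.6 TPM), the B cell list (6 genes, 52.1 to 62.7 and 51.1 to 56.6), the fibroblast and endothelial list (9 genes, 64.8 to 70.5 and 63.5 to 75.3) and the cortical epithelial list (8 genes, 434 to 460 and 385 to 439) overlapped between the groups. Foxn1 of the cortical list did not overlap, at 152, 124 and 144 TPM in WT and 105, 97.9 and 89.3 in cKO (-0.54 on the log2 scale, SE 0.0869, edgeR adjusted p = 0.0506). None of these marker genes was at 0 in all libraries, and their part in the results below was not tested.

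Bases before the annotated start are shown for the 6 genes with the smallest p-values among those that have a RefSeq promoter entry and hold at most 30 exon bases in the window, so that the letters can be read beside their values. Each window is the 170 bases before the start, 5′ to 3′ on the gene's strand, from RefSeq in build GRCm38.p6: Muc13 (chr16:33793867-33794036, plus strand), Reg3g (chr6:78468875-78469044, minus strand), Reg3b (chr6:78370715-78370884, plus strand), Cdhr2 (chr13:54701293-54701462, plus strand), Gda (chr19:21472662-21472831, minus strand) and Krt20 (chr11:99438154-99438323, minus strand). Capitals mark letters of motifs named after the lines.
Muc13: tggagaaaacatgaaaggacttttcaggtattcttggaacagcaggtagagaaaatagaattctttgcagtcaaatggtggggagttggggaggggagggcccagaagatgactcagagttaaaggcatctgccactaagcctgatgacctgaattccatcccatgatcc
Reg3g: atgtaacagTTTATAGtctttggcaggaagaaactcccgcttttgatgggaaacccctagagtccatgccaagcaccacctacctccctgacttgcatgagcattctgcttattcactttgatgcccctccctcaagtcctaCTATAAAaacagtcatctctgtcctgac
Reg3b: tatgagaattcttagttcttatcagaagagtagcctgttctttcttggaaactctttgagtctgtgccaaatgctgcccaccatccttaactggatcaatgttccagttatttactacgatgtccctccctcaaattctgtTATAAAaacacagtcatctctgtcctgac
Cdhr2: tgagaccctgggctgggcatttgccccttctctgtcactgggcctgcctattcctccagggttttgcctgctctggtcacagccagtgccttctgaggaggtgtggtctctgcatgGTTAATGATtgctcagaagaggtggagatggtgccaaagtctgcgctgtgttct
Gda: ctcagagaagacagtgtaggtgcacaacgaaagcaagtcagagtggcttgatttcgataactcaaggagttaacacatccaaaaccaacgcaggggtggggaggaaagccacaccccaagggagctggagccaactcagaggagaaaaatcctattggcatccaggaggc
Krt20: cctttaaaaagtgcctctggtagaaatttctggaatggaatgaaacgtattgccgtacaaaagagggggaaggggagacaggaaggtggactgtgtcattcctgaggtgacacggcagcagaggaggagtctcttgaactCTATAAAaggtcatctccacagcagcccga

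The motifs searched, on both strands, were TTTATNG for CDX factors, CAAAGTCCA and CAAAGTTCA for HNF4, GTTAATNAT for HNF1, the TATA box letters TATAAA, and the p53 half-site. Of the 35 genes, 29 had an entry, and 6 did not (Tm4sf20, Mep1b, Cdh17, Myo7b, Cdx1 and Malrd1). For 24 of the 29, bases shortly after the start were found in an annotated transcript of the same gene. The limit on exon bases was used to pick the windows shown and not for the counts that follow. The CDX letters stood in 4 of 29 windows (13.8%: Fabp1, Fabp2, Krt20 and Reg3g), against 6.51% of all 32851 promoters. The HNF1 letters stood in 2 (6.90%: Cdhr2 and Slc26a3), against 0.563%, and CAAAGTCCA in 1 (3.45%: Treh), against 0.289%, while CAAAGTTCA was in none, against 0.216%. TATAAA stood in 6 (20.7%: Fabp1, Fabp6, Krt20, Reg3b, Reg3g and Slc26a3), against 8.40%, and can overlap the CDX letters, as it does near the start of Krt20 and Reg3g. No window held the p53 half-site, against 4.63% of all promoters. These matches describe letters in 170 bases and nothing more. The windows of Reg3b and Reg3g, which lie 92.8 kb apart on chromosome 6 with Reg3a and Reg1 between them, were 68.2% identical in a global alignment.

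All 35 genes were detected in every library, and their levels spanned more than 3 orders of magnitude on the per-length TPM scale. Reg3g, a secreted lectin that kills Gram-positive bacteria, was the highest, at 795, 974 and 831 TPM in WT and 1303, 1507 and 1119 in cKO, and it ranked 87 among all genes by mean TPM. It was followed by Lypd8, a GPI-anchored protein of colon epithelium that binds flagellated bacteria, at a mean of 700.1 TPM over the 6 libraries. Then came the intestinal homeobox factor Cdx1 (mean 416 TPM), the ileal bile acid-binding protein Fabp6 (239.9), the keratin Krt20 (144) and the fatty acid-binding protein Fabp1 (129). At the other end were Slc15a1, the peptide transporter PEPT1 (1.52), Lct, the lactase (1.03), and Slc26a3, a chloride-bicarbonate exchanger (0.439). The top 4 of this order (Reg3g, Lypd8, Cdx1 and Fabp6) were apart from each other and from Krt20 in both groups. Of the 34 pairs of neighbours in the order, 23 overlapped over the WT libraries and 19 over the cKO libraries, so most steps further down were within the spread.

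**Figure D1:**
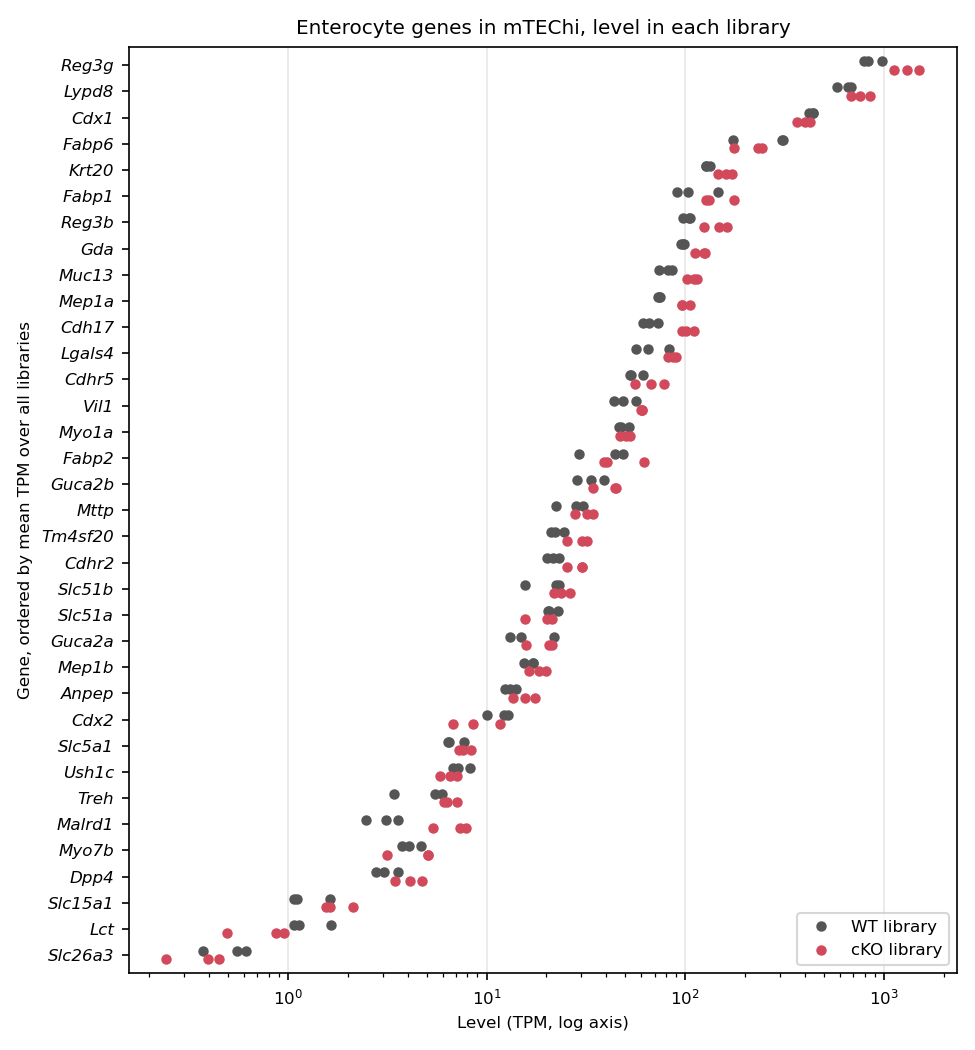
Level of each of the 35 enterocyte genes (rows, ordered by mean) in TPM on a log axis, 1 point per library, WT grey and cKO red. Reg3g, Lypd8 and Cdx1 lead, and Lct and Slc26a3 lie at about 1 TPM or below.

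Summed over the 35 genes, WT libraries held 3111, 3589 and 3392 TPM and cKO libraries 4166, 4330 and 3963. The cKO sums were all above the WT sums. Reg3g alone made up 24.5% to 34.8% of each sum. Without it the sums were 2316, 2615 and 2561 TPM in WT and 2864, 2823 and 2844 in cKO, again without overlap.

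Gene by gene, most of the set was somewhat higher in cKO, and 1 gene passed the test over all genes. Of 35 genes, 28 had a log2 fold change above 0, against 49.0% of the 28543 genes tested. The median was 0.24 on the log2 scale, against -0.005 over all genes, and 14.1% of all genes lay at or above the median of the set. At an adjusted p of 0.05, edgeR called 1 of 35 higher (Malrd1), where 0.0245% of all genes tested were called higher, and 0 of 35 lower, where 0.035% were. At an unadjusted p of 0.05, 14 of 35 were higher, against 4.28% of all genes, and 1 (Lct) was lower, against 4.23%. DESeq2 called 6 of 35 higher (Malrd1, Cdh17, Reg3g, Reg3b, Muc13 and Mep1a), against 0.48% of all genes, and 0 lower. The set was chosen with earlier results of these data known, so these shares describe it and are no independent support.

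On the CPM scale, every cKO library was above every WT library in 12 of the 35 genes, against 7.14% of all genes tested. In 2 (Lct and Ush1c) every cKO library was below, against 7.28%. The 12 were Malrd1, Cdh17, Reg3g, Reg3b, Muc13, Mep1a, Cdhr2, Treh, Gda, Krt20, Vil1 and Anpep. Small gaps depended on the scale: in TPM, Anpep and Ush1c overlapped between the groups, while Lypd8 and Tm4sf20 were higher in cKO without overlap. Among the 21221 genes tested at or above the level of the set's lowest member, 50.6% were above 0 and 8.19% had all cKO libraries on top. That cut kept most of the genes tested and was not matched to the levels of the set, so the part of expression level was not tested. Set against the mean of the WT libraries, the median log2 ratio over the 35 genes was 0.25, 0.24 and 0.25 in the cKO libraries, while single WT libraries stood at -0.07, 0.09 and -0.05; the cKO ratios share that mean and are not independent of each other. The second WT library was the highest of its group for 17 of 35 genes.

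**Figure D2:**
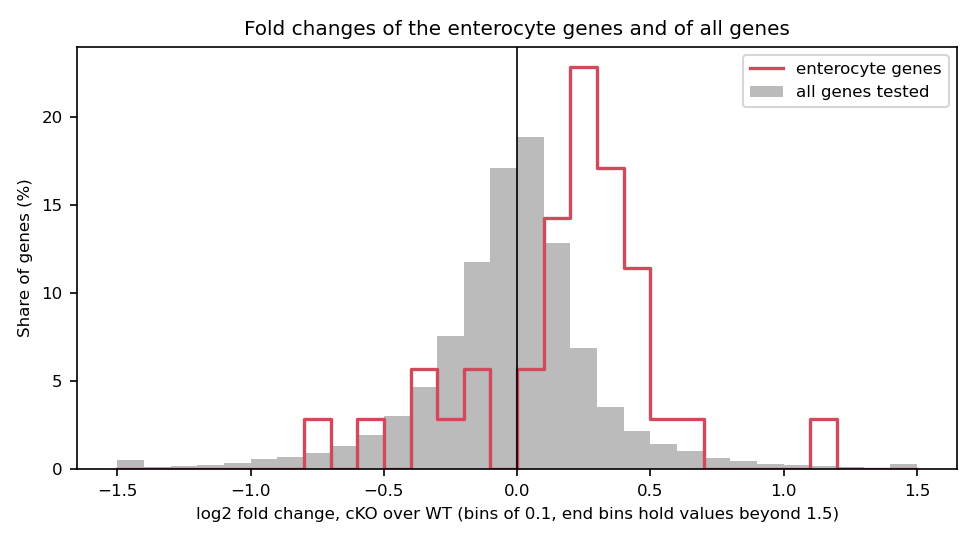
Share of genes (%) by log2 fold change of cKO over WT in bins of 0.1, for all genes tested (grey bars) and the 35 enterocyte genes (red line). The red line peaks to the right of 0, at 22.9% of the set between 0.2 and 0.3, with a few genes to the left of 0.

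**Figure D3:**
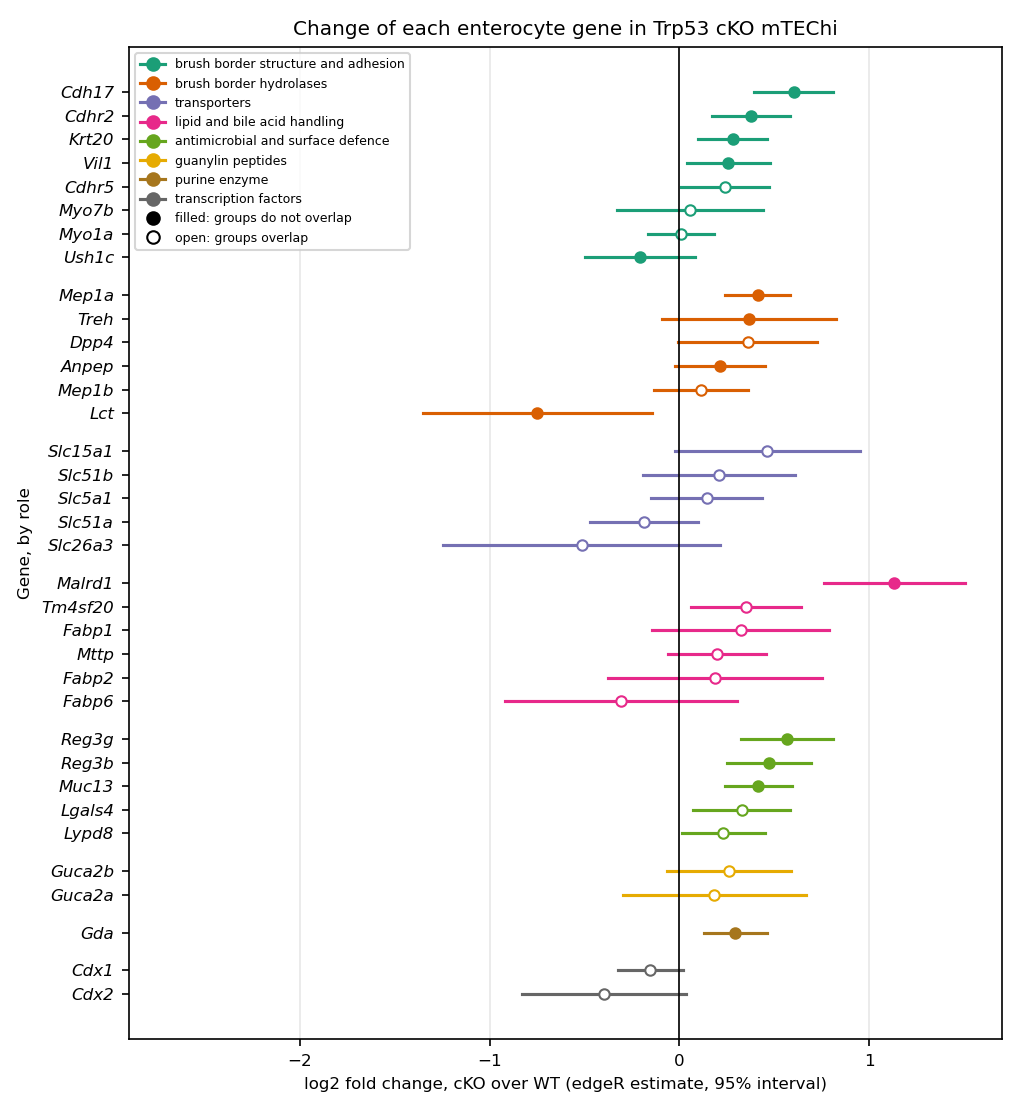
Log2 fold change (cKO over WT) of each enterocyte gene with its 95% interval, grouped and coloured by role. Filled points mark genes whose WT and cKO libraries do not overlap in CPM. All 5 defence genes lie to the right of 0, and both transcription factors lie to the left.

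The 8 genes of brush border structure and adhesion had a median log2 fold change of 0.25; 7 were above 0 and none passed the adjusted test. Cdh17 (chromosome 4, 11758147 to 11817895), the liver-intestine cadherin of the lateral membrane, came closest. Its CPM was 118, 133 and 146 in WT and 187, 194 and 222 in cKO. The cKO libraries were all above the WT libraries, by 0.60 on the log2 scale (SE 0.0960, 95% interval 0.40 to 0.81, edgeR adjusted p = 0.0505), just short of the threshold. Cdhr2, a protocadherin that links the tips of microvilli, was at 40.9, 40.5 and 37.3 CPM in WT and 54.1, 53.6 and 46.5 in cKO (log2 fold change 0.38, SE 0.0957, edgeR adjusted p = 0.268). Its partner Cdhr5 had 0.24, with overlapping groups.

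Krt20 (chromosome 11, 99428403 to 99438150), an intermediate filament protein of differentiated gut epithelium, was at 105, 111 and 114 CPM in WT and 122, 143 and 137 in cKO, with no overlap (log2 fold change 0.28, SE 0.0847, edgeR adjusted p = 0.381). Vil1, the actin-bundling protein villin, had 0.26 and no overlap. Of the motors, Myo1a, which ties the actin core to the membrane, had 0.01 and Myo7b, the motor of the microvillus tip complex, 0.06. Ush1c, the scaffold harmonin of that complex, was at 14.0, 12.1 and 12.7 CPM in WT and 10.0, 12.1 and 11.5 in cKO, a log2 fold change of -0.21 (SE 0.133, edgeR adjusted p = 0.717). The nearest WT and cKO libraries stood at 12.14 and 12.09 CPM, so the gap between the groups was small. The 8 genes summed to 381 to 385 TPM in WT and 468 to 494 in cKO.

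Of the 6 brush border hydrolases, 5 were above 0 and the median was 0.29. Mep1a (chromosome 17, 43474324 to 43502812), the alpha subunit of the metalloprotease meprin, was at 110, 116 and 112 CPM in WT and 145, 143 and 162 in cKO. The groups did not overlap, and the log2 fold change was 0.41 (SE 0.0798, edgeR adjusted p = 0.136). Mep1b, its beta subunit, had 0.12 and overlapping groups. The trehalase Treh (0.37), the dipeptidyl peptidase Dpp4 (0.36) and the aminopeptidase Anpep (0.21) lay on the same side, Treh and Anpep without overlap.

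Lct (chromosome 1, 128284756 to 128328318) went the other way. This low gene had 136, 156 and 229 counts in WT and 65, 111 and 136 in cKO, or 2.95, 3.30 and 4.68 CPM against 1.37, 2.41 and 2.72. Every cKO library was below every WT library, with a log2 fold change of -0.75 (SE 0.278, 95% interval -1.35 to -0.15, edgeR adjusted p = 0.488). It was the lowest log2 fold change of the set. The 6 hydrolases summed to 109 to 115 TPM in WT and 141 to 148 in cKO. Sums of the surface defence genes did not overlap either (1641 to 1880 TPM in WT, 2188 to 2545 in cKO). Those of lipid genes (349 to 552 and 410 to 551) and transporters (44.6 to 54.0 and 51.7 to 54.7) overlapped. So did those of guanylin peptides (41.6 to 60.8 and 50.3 to 66.1) and transcription factors (429 to 454 and 378 to 434).

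The 5 transporters had a median log2 fold change of 0.14, and all 5 overlapped between groups. Slc15a1 had the largest value, 0.46 (SE 0.225, edgeR adjusted p = 0.612), at 158, 113 and 118 counts in WT and 214, 150 and 178 in cKO. Slc26a3 (chromosome 12, 31390871 to 31473917) had 70, 84 and 52 counts in WT and 32, 50 and 64 in cKO, a log2 fold change of -0.51 with an SE of 0.337 (edgeR adjusted p = 0.726). The glucose transporter Slc5a1 had 0.14. The subunits of the bile acid exporter differed in sign, with -0.19 for Slc51a and 0.21 for Slc51b, and both intervals held 0. Slc51a shares 17.7% of its exon bases with the antisense gene Pcyt1a, and Slc51b 12.8% with Rasl12; the counting ignored strand, so reads of each pair cannot be told apart there.

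The 6 genes of lipid and bile acid handling held the single call. Malrd1 (chromosome 2, 15526479 to 16255555), a protein of enterocytes that in mouse controls the output of the bile acid hormone Fgf15, was at 9.06, 11.0 and 7.41 CPM in WT and 21.4, 22.8 and 16.2 in cKO. The lowest cKO library was above the highest WT library, and Malrd1 rose 2.19-fold in cKO, by 1.13 on the log2 scale (SE 0.171, 95% interval 0.763 to 1.504, edgeR adjusted p = 0.0424). Its mean was 3.06 ± 0.572 TPM in WT and 6.86 ± 1.30 in cKO (SD, n = 3 each), a low level beside the other genes. The call was close to the threshold: edgeR's adjusted p was 0.159 without the first WT library, 0.255 without the third, 0.101 without the first cKO library and 0.253 without the second, with log2 fold changes of 1.001 to 1.12.

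The fatty acid-binding proteins varied more between libraries of 1 group than the other 3 lipid genes did. Fabp6 (chromosome 11, 43596049 to 43601540) was at 35.7, 66.6 and 66.2 CPM in WT and 36.5, 47.9 and 51.8 in cKO, a log2 fold change of -0.31 (SE 0.257, edgeR adjusted p = 0.813). The first library of each group was low, and the groups overlapped. Fabp1 (chromosome 6, 71199827 to 71205023) was at 21.5, 36.8 and 25.5 CPM in WT and 30.5, 31.2 and 43.3 in cKO (log2 fold change 0.32, SE 0.206, edgeR adjusted p = 0.725). Fabp2, the intestinal form, had 0.19 with an SE of 0.247. Mttp, which loads lipid onto lipoproteins, had 0.20, and the membrane protein Tm4sf20 had 0.35, both with overlap.

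The 5 genes of surface defence had a median log2 fold change of 0.42, and none passed the adjusted test of edgeR. All 5 were above 0, against 49.0% of all genes tested. Each was higher at an unadjusted edgeR p under 0.05, against 4.28% of all genes. Of 13 further defence genes on a wider list described below, 1 was higher and 1 lower at that p. Reg3g (chromosome 6, 78466269 to 78468872) was at 723, 937 and 784 CPM in WT and 1195, 1370 and 1054 in cKO. The groups did not overlap, at a log2 fold change of 0.57 (SE 0.112, 95% interval 0.32 to 0.81, edgeR adjusted p = 0.147). Reg3b (chromosome 6, 78370657 to 78373466), a lectin of the same family, was at 48.0, 53.9 and 53.9 CPM in WT and 73.2, 79.9 and 63.3 in cKO, also without overlap (0.47, SE 0.101, edgeR adjusted p = 0.178). The pair share 0.977% of the 25-base words of Reg3b.

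Muc13 (chromosome 16, 33794037 to 33819934), a transmembrane mucin of the brush border, was at 112, 113 and 100.1 CPM in WT and 151.5, 144 and 139 in cKO. All cKO libraries were above WT, at a log2 fold change of 0.42 (SE 0.0815, edgeR adjusted p = 0.142). An antisense gene covers 6.06% of its exon bases, at 113 counts per library on average against 6016 for Muc13. Lypd8 (chromosome 11, 58379043 to 58390728) was at 319.6, 383 and 389 CPM in WT and 472, 377 and 432 in cKO, a log2 fold change of 0.23 (SE 0.1002, edgeR adjusted p = 0.565). The second cKO library lay below 2 of the WT libraries. Lgals4, a galectin of gut epithelium, had 0.33 with overlapping groups.

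**Figure D4:**
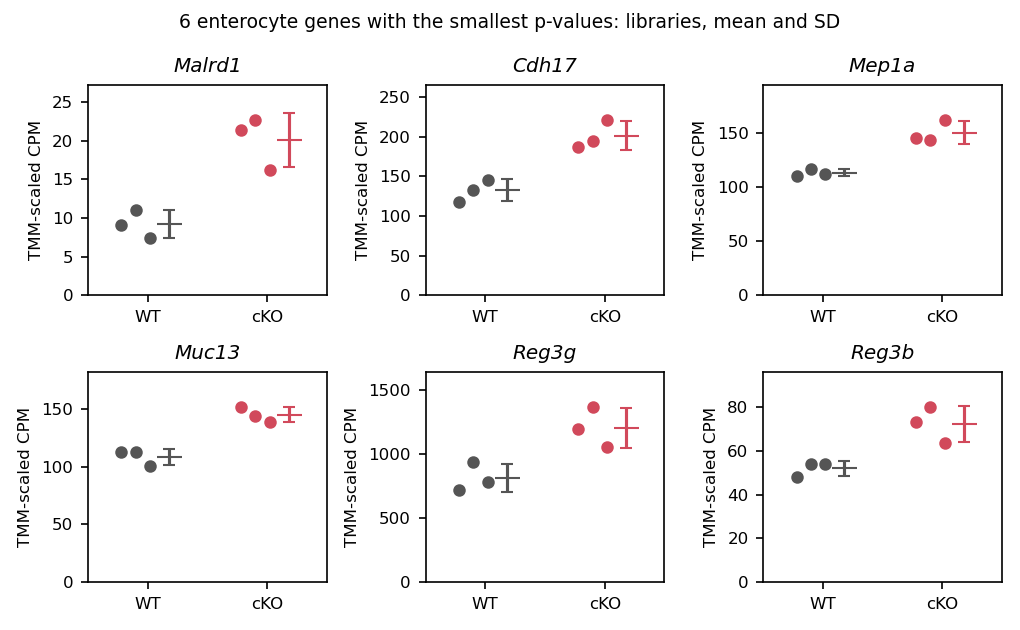
TMM-scaled CPM of the 6 enterocyte genes with the smallest p-values in each WT (grey) and cKO (red) library, with mean and SD beside the points; each axis starts at 0. In all 6 genes the cKO libraries lie above the WT libraries, and Malrd1 has the largest ratio, 2.19.

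Gda, the guanine deaminase, was at 265, 269.5 and 272 CPM in WT and 304.5, 338 and 347 in cKO, with no overlap (0.29 on the log2 scale, SE 0.0763, edgeR adjusted p = 0.291). The peptide hormones guanylin (Guca2a, 0.18) and uroguanylin (Guca2b, 0.26), which set intestinal fluid secretion and whose genes lie 17.1 kb apart on chromosome 4, overlapped between groups.

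The 2 intestinal homeobox factors were both below 0. Cdx1 (chromosome 18, 61018862 to 61036199) was at 315, 351 and 344 CPM in WT and 304, 319.9 and 285 in cKO, a log2 fold change of -0.15 (SE 0.0786, 95% interval -0.32 to 0.02, edgeR adjusted p = 0.642). Cdx2 (chromosome 5, 147300805 to 147307270) was at 9.77, 12.6 and 12.9 CPM in WT and 6.66, 8.28 and 11.8 in cKO, a log2 fold change of -0.40 (SE 0.199, 95% interval -0.83 to 0.04, edgeR adjusted p = 0.632). The groups overlapped for both genes. Of this pair, which act in intestinal identity, Cdx1 had a mean of 416 TPM against 10.3 TPM for Cdx2.

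The HNF4 factors, which were not part of the set, had log2 fold changes close to 0. Hnf4a was at 10.9, 10.2 and 12.8 CPM in WT and 12.2, 11.0 and 12.4 in cKO (log2 fold change 0.07, SE 0.136, edgeR adjusted p = 0.938). Hnf4g, the form with the higher level, was at 25.1, 29.3 and 25.1 CPM in WT and 24.6, 29.2 and 27.2 in cKO (0.02, SE 0.112, edgeR adjusted p = 0.974). The direction of either factor turns with 1 library: Hnf4a had -0.0005 without the second WT library, and Hnf4g had -0.01 without either of the other WT libraries alone and -0.04 without the second cKO library. Of 16 intestinal regulators on a wider list, 11 were above 0, with a median of 0.09 and no call.

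That wider list, also chosen with earlier results of these data known, held 88 further intestinal genes. Epcam is also on the marker list of mature medullary epithelium, and Enpep on the cortical epithelial list. Of the 88 genes, 60 (68.2%) were above 0, against 49.0% of all genes tested, with a median of 0.08. In 18 genes (20.5%) all cKO libraries were above WT, against 7.14% of all genes, and in 1 (1.14%) all were below, against 7.28%. The adjusted test of edgeR called none; at an unadjusted p of 0.05, 14 of 88 were higher, against 4.28% of all genes, and 1 lower, against 4.23%. DESeq2 called 4 of 88 higher, against 0.48% of all genes. The 4 genes with the smallest p-values were listed under brush border structure (Eps8 and Anks4b) and brush border hydrolases (Mgam and Xpnpep2). Eps8, an actin-bundling protein of microvillus tips, was at 21.9, 22.3 and 21.7 CPM in WT and 32.0, 33.4 and 34.8 in cKO (log2 fold change 0.60, SE 0.0971, edgeR adjusted p = 0.0506). Anks4b, a scaffold of the tip complex that holds Cdhr2 and Cdhr5, was at 90.5, 86.5 and 84.5 CPM in WT and 110.3, 114 and 117 in cKO (0.38, SE 0.0769, edgeR adjusted p = 0.147). The groups did not overlap for either gene.

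Among hydrolases of the wider list, Mgam, maltase-glucoamylase, was at 70.8, 77.3 and 71.7 CPM in WT and 92.2, 98.2 and 98.3 in cKO (0.39, SE 0.0806, edgeR adjusted p = 0.152). Xpnpep2, a membrane aminopeptidase, was at 15.3, 15.8 and 15.2 CPM in WT and 21.5, 20.9 and 21.1 in cKO (0.45, SE 0.106, edgeR adjusted p = 0.227). Neither gene overlapped between groups. The 13 further genes of brush border structure had a median of 0.18, with 11 above 0. In 8 of them (61.5%) all cKO libraries were above WT, against 7.14% of all genes tested, and in 0 all were below, against 7.28%. The other roles lay closer to 0, with medians of 0.06 for 14 hydrolases, 0.05 for 19 transporters, 0.02 for 13 lipid genes and 0.02 for 13 defence genes. In these, all cKO libraries were above WT for 3 hydrolases (21.4%), 3 transporters (15.8%), 0 lipid genes and 2 defence genes (15.4%). The same held for 2 of the 16 regulators (12.5%). All cKO libraries were below WT for 1 defence gene (7.69%).

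The 4 highest of the wider list by TPM did not pass the adjusted test. The apolipoprotein Apoa4 (mean 647 TPM) was at 402, 568 and 457 CPM in WT and 504, 629 and 541 in cKO (0.23, SE 0.122, edgeR adjusted p = 0.656). The sorting marker Epcam (mean 549 TPM) was at 507, 526 and 458 CPM in WT and 589, 525 and 576 in cKO (0.18, SE 0.0808, edgeR adjusted p = 0.582). The groups overlapped for both. The nitric oxide synthase Nos2 (mean 246 TPM) was at 384, 493 and 464 CPM in WT and 412, 585 and 544 in cKO, also with overlap (0.20, SE 0.131, edgeR adjusted p = 0.730). Ezr, the ezrin that links actin to the membrane (mean 229 TPM), was at 326, 326 and 301 CPM in WT and 336, 369 and 328 in cKO, just without overlap (0.12, SE 0.0777, edgeR adjusted p = 0.728).

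**Figure D5:**
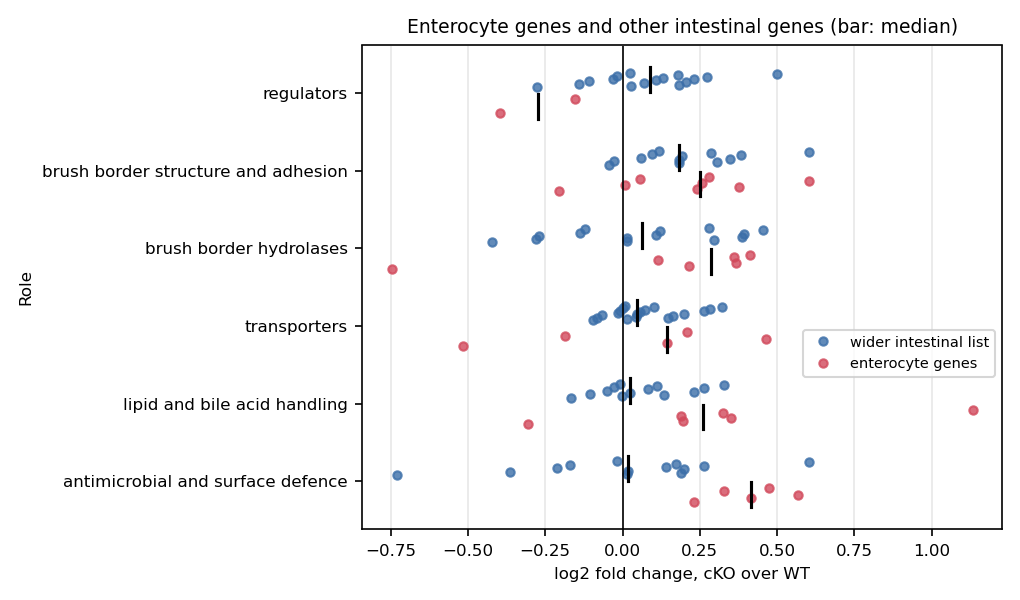
Log2 fold change (cKO over WT) of each enterocyte gene (red) and each gene of the wider intestinal list (blue) by role, 1 point per gene, with a black bar at the median. Brush border structure has medians of 0.25 and 0.18 in the 2 lists, while in surface defence the medians are 0.42 and 0.02.

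Lists for other mimetic programs give a frame for these values. For 12 microfold cell genes the median log2 fold change was 0.32 and 11 were above 0, and Ccl6 had their smallest p (0.66, edgeR adjusted p = 0.291). The 17 neuroendocrine genes had a median of 0.13 with 14 above 0, led by Resp18 (0.85, edgeR adjusted p = 0.147). The 22 hepatocyte genes, whose program shares HNF4 factors with the enterocyte, had a median of -0.13 with 9 above 0; their smallest p was that of Serpina1b (0.67, edgeR adjusted p = 0.310). No gene of these 3 lists passed the adjusted test of edgeR. All cKO libraries were above WT in 4 microfold (33.3%), 6 neuroendocrine (35.3%) and 2 hepatocyte genes (9.09%). That share was 34.3% in the 35 enterocyte genes and 7.14% over all genes. All were below in 0, 0 and 3, against 7.28%. Above 0 were 91.7%, 82.4% and 40.9%, against 49.0% of all genes. At an unadjusted edgeR p of 0.05, 4, 4 and 1 were higher and 0, 0 and 4 lower, against 4.28% and 4.23% of all genes. The differences between lists were not tested, and the comparisons share all 6 libraries.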

How the data were processed

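Poly(A) RNA of 6 sorted cell samples was made into strand-specific, paired-end libraries, per the labels' protocols. The authors deposited whole-number counts per gene for each library and a series table with the same counts (equal for all 51810 genes it lists) and TPM, which the deposited counts and exon lengths return within 0.000834%. Per the submitters' processing notes, TopHat2 2.1.1, SAMtools 1.9 and Subread 2.0.1 were used with mm10; per the file headers, featureCounts 2.0.0 counted exons of Ensembl release 99 (GRCm38) without strand, a read overlapping several genes counting for each. Such reads add to the counts of both antisense partners. No mitochondrial gene has a count.

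Counts were scaled with TMM factors, filtered with filterByExpr (28543 genes kept, all 35 enterocyte genes among them) and tested with edgeR 4.0.16 (quasi-likelihood, robust, R 4.3.3, Benjamini-Hochberg over all genes, threshold 0.05), on all 6 libraries with group as the only term. SE is the log2 fold change divided by the root of the F statistic, and 95% intervals use the test's degrees of freedom. DESeq2 1.42.0, limma 3.58.1, other scalings and filters and each library left out were alternatives, 14 in all; the fits were tested on simulated data. Levels are compared between genes in TPM. Whether a gene overlaps between the groups is read in CPM unless TPM is named. Counts of 0 do not arise among the 35 genes.

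The genes and lists were chosen with earlier results of these data known. Full values are given for genes past the threshold, the 6 highest in TPM, the 4 smallest p-values and the 3 highest and 3 lowest log2 fold changes; of the wider list, for Hnf4a, Hnf4g, the 4 smallest p-values and the 4 highest in TPM; of each compared list, for the smallest p. Other values were picked by role after they were seen. 1 of 89 symbols of the wider list, Muc17, was not used here.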

Additional observations from a re-analysis of the deposited data

How the results depend on the processing

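The 14 alternatives moved calls more than directions. The number of genes called, 17 with edgeR, was 186 with DESeq2, 160 with no filter, 5 with limma-voom and 6 without robust estimation; of the 35 enterocyte genes 6, 6, 0 and 0 were called, against 1, and of the wider intestinal list 4 with DESeq2 and 3 with no filter, against 0. The cause was not tested. Leaving out 1 library at a time gave 6 to 16 genes called, 0 to 1 enterocyte genes and 0 to 1 genes of the wider list. Malrd1 had an adjusted p of 0.0675 with limma-voom and 0.0651 without robust estimation. The median of the 35 genes ranged from 0.21 to 0.30 when 1 library was left out, and 26 to 27 genes were above 0, against 28 with all libraries. Leaving out 1 library gave -0.000487 to 0.168 for Hnf4a and -0.0359 to 0.102 for Hnf4g: Hnf4a turned to -0.000487 without WT replicate 2, and Hnf4g to -0.0133 without WT replicate 1, -0.0132 without WT replicate 3 and -0.0359 without cKO replicate 2. With 3 libraries a group, the median SE of the set was 0.131, and Cdh17, at 0.60, still missed the threshold with edgeR.

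With a replicate block for the library number, 203 genes, 6 of the 35 enterocyte genes (the same 6 as with DESeq2) and 3 of the wider list (Eps8, Anks4b and Mgam) were called. The labels do not say what a number shares: deviations of same-numbered libraries correlated at 0.113, 0.0544 and 0.0755 over 28543 genes and at 0.395, 0.105 and 0.354 over the 35, and each library correlated best with its own number, which is a hint from the data only. Between same-numbered libraries 28, 22 and 27 of the 35 genes were higher in cKO, with median log2 ratios of 0.33, 0.11 and 0.27.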
